A study of Mus musculus with 3 samples.

Results

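Long footprints are stretches of open chromatin, 30 bp or more in length, in which DNase I cut less often than at the bases around them. They were chosen by length and by sharing: a footprint on an autosome was kept when it measured 30 bp or more in its own library and overlapped such a footprint by at least 1 bp in both other libraries. This left 2475 sites, each made of exactly 1 footprint per library, out of 140947, 105510 and 117030 autosomal footprints in replicates 1, 2 and 4. They were compared with short footprints of 7 to 12 bp shared by all 3 libraries under the same rule. There were 6684, 6594 and 6639 of these in replicates 1, 2 and 4, at 7125 sites. The rule was applied to each footprint alone, so, unlike the long sites, some short sites do not hold a kept footprint of every library. DNase-seq, in which the nuclease DNase I cleaves accessible DNA in nuclei, had been run on primary monocytes, blood phagocytes that give rise to macrophages, from female virgin B6CASTF1/J adults of 2 months. These mice are hybrids with 1 C57BL/6J and 1 CAST/EiJ parent. All 3 libraries form 1 group with no treatment, and they are labelled as biological replicates 1, 2 and 4 but carry a single donor identifier. Nothing further states that they come from separate animals, so the errors given here may be technical. No read counts are in the files used here, so depth is unknown.

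A footprint is read as DNA that something shielded from the nuclease. Most transcription factors contact a short stretch of DNA, whereas CTCF, the zinc finger protein that anchors chromatin loops and insulators, lies along a long one with its row of zinc fingers. Stretches of neighbouring factor sites at promoters, such as the GC boxes bound by SP and KLF factors, and the large complexes of RNA polymerase III at tRNA genes can also shield extended stretches. TFIIIC, an assembly factor of RNA polymerase III, contacts the A box and B box inside tRNA genes.

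The sequences of the sites with the longest cores are shown first, because length is what defines the members. The core of a site is the stretch that lay in the long footprint of all 3 libraries. It is printed in capitals between 10 flanking bases on each side, on the plus strand of mm10 from the RefSeq sequence, which represents C57BL/6J and not the CAST/EiJ allele. Coordinates are those of the core, and each site is called by its nearest protein-coding gene. Distances to a gene are to its nearest coding transcription start site (TSS), which can lie inside the gene. A further member of this set, at Rbm27, is described by position only.
Gm10718, chr9:3024091-3024188: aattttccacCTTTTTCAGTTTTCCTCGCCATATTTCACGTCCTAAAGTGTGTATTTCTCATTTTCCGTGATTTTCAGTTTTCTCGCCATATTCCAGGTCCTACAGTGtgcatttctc
Pdia4, chr6:47757987-47758063: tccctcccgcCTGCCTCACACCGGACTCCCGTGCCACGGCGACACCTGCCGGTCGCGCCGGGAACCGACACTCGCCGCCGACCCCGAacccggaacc
Zmynd8, chr2:165884729-165884789: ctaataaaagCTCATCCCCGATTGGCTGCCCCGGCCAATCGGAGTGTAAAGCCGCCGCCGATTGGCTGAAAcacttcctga
Gm11168, chr9:3006794-3006852: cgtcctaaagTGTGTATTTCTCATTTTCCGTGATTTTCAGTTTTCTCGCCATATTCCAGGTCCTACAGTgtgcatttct
Cacybp, chr1:160212853-160212910: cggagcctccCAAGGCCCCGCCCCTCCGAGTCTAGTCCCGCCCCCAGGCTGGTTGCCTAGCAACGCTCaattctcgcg
Wdr18, chr10:79960035-79960089: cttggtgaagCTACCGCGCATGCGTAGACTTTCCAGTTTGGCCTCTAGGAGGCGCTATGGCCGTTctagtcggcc

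The next set belongs to regulators of myeloid cells, the lineage of the monocytes, and holds the 6 longest cores among the named sites of regulator and marker genes.
Klf2, chr8:72318834-72318880: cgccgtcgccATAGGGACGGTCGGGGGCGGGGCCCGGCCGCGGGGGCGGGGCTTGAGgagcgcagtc
Cebpb, chr2:167685302-167685347: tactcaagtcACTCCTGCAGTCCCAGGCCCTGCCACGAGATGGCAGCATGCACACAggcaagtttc
Stat3, chr11:100939674-100939718: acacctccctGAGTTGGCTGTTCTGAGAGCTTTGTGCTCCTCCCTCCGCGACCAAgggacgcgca
Stat3, chr11:100939746-100939787: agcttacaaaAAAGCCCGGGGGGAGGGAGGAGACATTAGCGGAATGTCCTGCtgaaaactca
Batf3, chr1:191085136-191085176: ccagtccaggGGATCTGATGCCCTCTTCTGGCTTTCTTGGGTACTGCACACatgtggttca
Klf6, chr13:5861419-5861456: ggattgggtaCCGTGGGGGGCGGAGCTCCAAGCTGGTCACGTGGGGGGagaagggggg

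The last set shows the kinds of sequence that recurred among the members, and was picked after the values were seen. The sites near Chd2 and Dand5 hold an exact CTCF match, those at n-TEctc13 and n-TLaag4 lie in tRNA genes, those at Bnip3l and Gtf3c1 hold the CREB/ATF pattern TGACGTCA, and those at Fam220a and Brf1 hold runs of the GC box GGGCGG. Gtf3c1 encodes a TFIIIC subunit and Brf1 a subunit of TFIIIB, a further assembly factor of RNA polymerase III. The gene nearest to n-TLaag4 is Polr3e, of a subunit of that polymerase, whose TSS is 160 bp away.
Chd2, chr7:73618505-73618548: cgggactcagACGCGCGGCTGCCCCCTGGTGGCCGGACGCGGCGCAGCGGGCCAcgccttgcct
Dand5, chr8:84815721-84815766: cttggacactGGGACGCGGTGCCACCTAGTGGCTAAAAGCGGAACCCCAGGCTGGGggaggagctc
n-TEctc13, chr3:96501444-96501482: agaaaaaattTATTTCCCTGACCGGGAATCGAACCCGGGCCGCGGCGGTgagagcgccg
n-TLaag4, chr7:120917565-120917603: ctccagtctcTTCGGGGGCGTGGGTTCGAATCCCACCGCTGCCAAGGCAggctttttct
Bnip3l, chr14:67008875-67008915: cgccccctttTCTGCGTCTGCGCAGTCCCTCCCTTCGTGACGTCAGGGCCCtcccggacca
Gtf3c1, chr7:125707796-125707832: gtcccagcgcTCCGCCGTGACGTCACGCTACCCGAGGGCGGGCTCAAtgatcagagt
Fam220a, chr5:143548642-143548675: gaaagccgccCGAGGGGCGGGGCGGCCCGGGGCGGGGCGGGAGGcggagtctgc
Brf1, chr12:113000705-113000736: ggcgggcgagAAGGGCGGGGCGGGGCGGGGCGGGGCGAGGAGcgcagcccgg

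Long footprints were a small class. Rows of 30 bp or more, shared or not, numbered 7041, 4329 and 5515 in replicates 1, 2 and 4, which was 4.995%, 4.10% and 4.71% of autosomal footprints. The short class held 96663, 72546 and 78907 rows, or 68.6%, 68.8% and 67.4%. Of the long rows 35.2%, 57.2% and 44.9% were shared by all 3 libraries, and of the short rows 6.91%, 9.09% and 8.41%. Length and sharing define the members, so these shares are descriptions, and a longer row also has more bases with which to overlap another. Just outside the threshold, 973, 724 and 853 rows measured 29 bp, and just inside it 853, 604 and 758 rows measured 30 bp. With replicate 2 left out, the library with fewest footprints, 3782 sites were shared by the other 2 libraries.

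Most members were 35 bp or longer: 709, 1007 and 857 of the 2475 measured under 35 bp in replicates 1, 2 and 4. Their median length was 39, 36 and 37 bp in replicates 1, 2 and 4, and the longest footprint measured 99, 98 and 98 bp. Only 127, 60 and 99 of the 2475 reached 50 bp. The core had a median of 33 bp and a range of 13 to 98 bp, and it measured 30 bp or more at 2163 sites (87.4%). It made up a median 87.8% of the stretch covered by any of the 3 footprints. Starts were identical in all 3 libraries at 329 sites, ends at 369 and both at 61. The libraries thus placed the same sites with edges that moved by a few bases, a median of 5 bp for both edges together in the most distant pair. Because all 3 libraries report on the same sites, the SDs given below for long footprints reflect little more than these edges, and Wilson intervals over sites (95%) are given for the main shares. Those intervals cover counting error only.

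For each measure that the rule did not use, the 3 differences between long and short footprints of a library were set against 0 with an exact two-sided permutation test by sign flips. With 3 libraries its smallest possible p is 0.25, so no difference can pass a threshold of 0.05. Every difference below that had the same sign in all 3 libraries has p = 0.25 in that exact permutation test, and its size and spread are given instead.

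Long footprints lay in tall peaks and close to their centres. The centre of a long footprint fell in a peak of the longer peak list in 95.9%, 95.7% and 96.2% of cases in replicates 1, 2 and 4, against 86.6%, 86.4% and 84.4% of short footprints. The difference of 10.2 ± 1.5 percentage points (SD, n = 3 libraries) was positive in every library and on 19 of 19 autosomes. Under the authors' shorter list the shares were 95.7% ± 0.51 for long and 79.9% ± 2.8 for short footprints (SD, n = 3), a difference of 15.8 points. Within its library, the peak that held a long footprint had a median height percentile of 92.2, 90.2 and 91.8, against 81.6, 76.4 and 78.6 for short footprints. Height is the authors' own value for a peak, and the percentile ranks a peak among all autosomal peaks of that list. The groups did not overlap, and long footprints ranked higher on 19 of 19 autosomes. Footprints of an intermediate 13 to 20 bp sat at a percentile of 90.6 (mean of 3 libraries), so against them the difference was 0.82. More of them lay within 1 kb of a coding transcription start site, 75.1% against 53.2% of long footprints. Within that distance the percentile was 96.4 for long and 92.9 for intermediate footprints, and beyond it 80.5 and 73.1 (means of 3 libraries). Between all long and short footprints, shared or not, the difference was 22.9. The peaks were not wider: the median width was 200 bp in each library for long footprints, and 240, 240 and 220 bp for short ones.

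**Figure D1:**
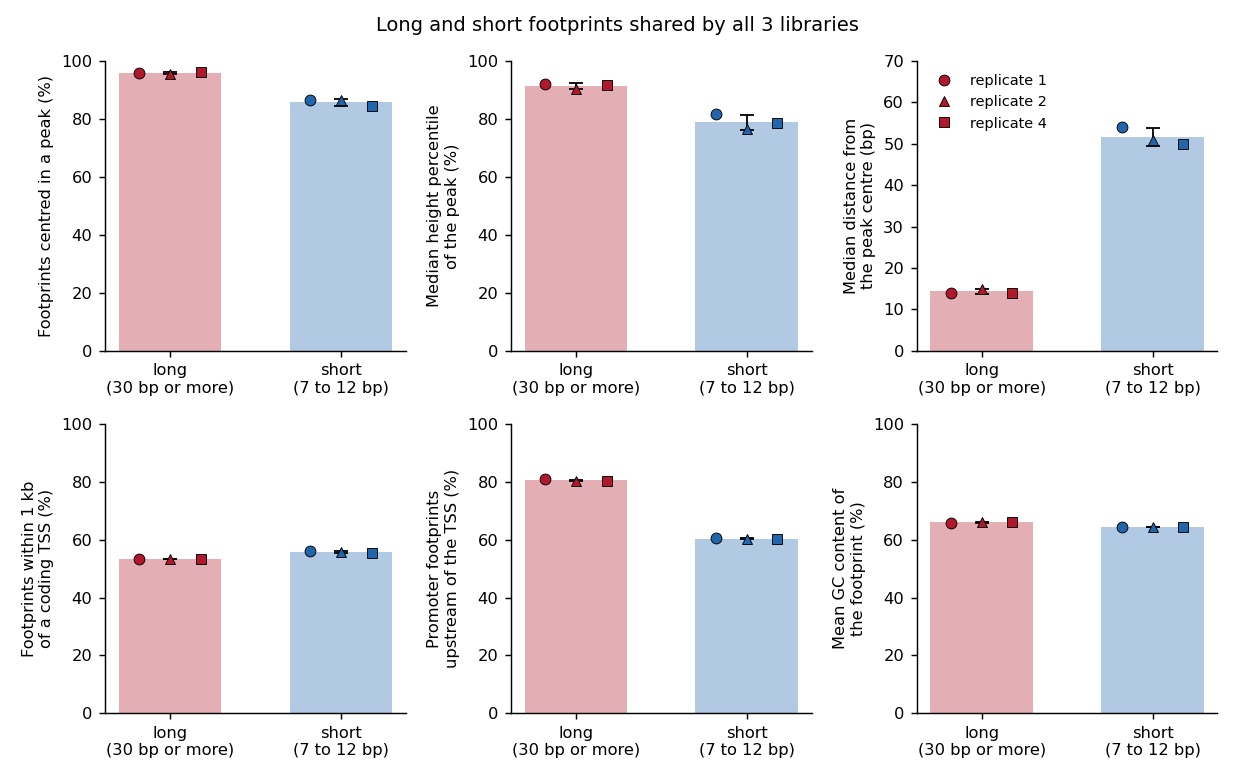
Values of long footprints (left, red) and short footprints (right, blue) shared by all 3 libraries: the share centred in a peak, the median height percentile of that peak, the median distance from the peak centre in bp, the share within 1 kb of a coding transcription start site (TSS), the share of promoter footprints upstream of the TSS and the mean GC content. Bars are means over 3 libraries, points are libraries and error bars are SDs. The classes lie far apart for the distance from the peak centre (14.3 bp for long and 51.7 bp for short) and close together for the share at promoters and GC content.

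The median distance of a long footprint from the centre of its peak was 14, 15 and 14 bp in replicates 1, 2 and 4, against 54, 51 and 50 bp for short footprints. In replicates 1, 2 and 4, 58.3%, 57.9% and 58.1% of long footprints in peaks lay within 20 bp of the centre, compared with 21.1%, 22.1% and 22.5% of short ones. In the profile by distance, long footprints fell off steeply from the centre, whereas short footprints stayed near 10% per 10 bp bin over the first 30 bp. A long footprint was the only footprint of its peak in 4.09%, 8.44% and 5.12% of cases, against 3.49%, 6.11% and 4.41% for short footprints. The authors' track of cleavage false discovery rates comes from the same libraries as the footprints, so the rates at the footprints are not independent of them. Whether the footprints were called from that track is not given in the sources used here. The rate at the centre was under 0.001 for 99.5% to 99.96% of long footprints and for 89.8% to 95.9% of short footprints.

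The share at promoters hardly separated the classes, but the position within promoters did. A footprint was called a promoter footprint when its centre lay within 1 kb of a protein-coding TSS of GENCODE M21. This held for 53.2% of long footprints (1317 of 2475 sites, 95% Wilson interval 51.2 to 55.2%) and for 55.7% ± 0.21 of short footprints (SD, n = 3). The difference of -2.50 points did not hold up. It was 1.52 without replicate 1 and 3.53 without replicate 2, it came to -0.09 among footprints inside peaks, and long footprints were lower on 11 of 19 autosomes and higher on 8. Footprints of 13 to 20 bp were at promoters in 75.1% of cases, so the share did not run one way with length. Among the remaining long sites, counted once each, 697 (28.2%) lay outside protein-coding genes, 409 (16.5%) in introns and 52 (2.10%) in exons. For short sites these were 1695 (23.8%), 1328 (18.6%) and 158 (2.22%).

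Within promoters, long footprints sat just upstream of the TSS. In replicates 1, 2 and 4, 80.8%, 80.2% and 80.3% of promoter long footprints were upstream, against 60.4%, 60.3% and 60.1% of short footprints, a difference of 20.2 ± 0.25 points (SD, n = 3). The stretch from 150 to 1 bp upstream held 61.7% ± 0.40 of long and 40.3% ± 0.12 of short promoter footprints. The first 150 bp from the TSS onward held 13.4% ± 0.35 of long and 27.2% ± 0.095 of short ones. Promoter footprints of 13 to 20 bp lay in between, with 71.4% upstream and with 53.7% and 21.6% in these 2 stretches (means of 3 libraries). Long and short footprints were both highest in the 50 bp just before the TSS, with 31.5%, 30.9% and 31.3% of long and 17.6%, 17.7% and 17.6% of short promoter footprints. In each 50 bp bin of the first 300 bp past the TSS, long footprints had the smaller share in all 3 libraries. From 300 to 350 bp they had the larger one, 1.14%, 1.06% and 1.06% against 0.70%, 0.68% and 0.71% of short footprints. Distal long footprints, those over 1 kb from a coding TSS, had a median distance of 12727 bp to the nearest one, against 17036 bp for distal short footprints (means of 3 libraries).

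**Figure D2:**
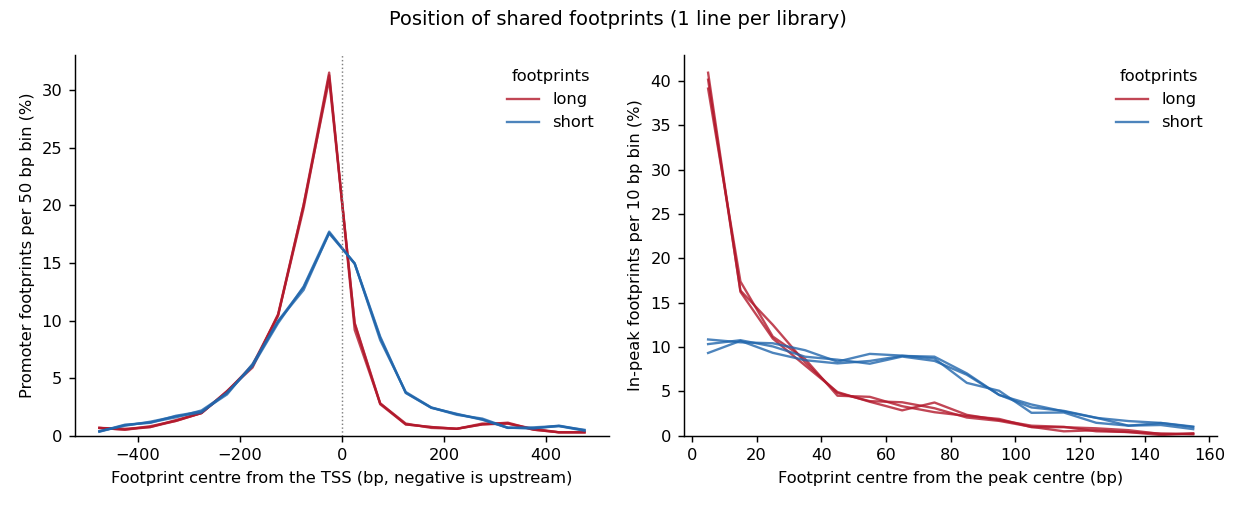
Share of promoter footprints per 50 bp bin by signed distance of their centre from the TSS (left, negative is upstream) and share of in-peak footprints per 10 bp bin by distance from the centre of the peak (right), for long footprints (red) and short footprints (blue), 1 line per library. Long footprints peak at 30.9 to 31.5% in the last bin before the TSS and at 39.1 to 40.9% in the first 10 bp from the peak centre, against 17.6 to 17.7% and 9.33 to 10.9% of short footprints.

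GC content was slightly higher in long footprints. It averaged 65.8%, 66.1% and 66.0% over the long intervals of replicates 1, 2 and 4, against 64.5%, 64.4% and 64.3% over the short ones. The difference of 1.54 ± 0.22 points (SD, n = 3) was positive on 15 of 19 autosomes and negative on 4. It was 1.39 points among promoter footprints, where the means were 70.9% for long and 69.5% for short, and 2.32 points among distal footprints, with 60.4% for long and 58.1% for short. Over equal windows of 100 bp it was 1.63 points. Without replicate 1 it was 2.40 points, without replicate 2 it was 2.79 points, and over all footprints of each class, shared or not, it was 4.48 points. Against footprints of 13 to 20 bp, whose mean GC content was 71.1%, the direction turned, to -5.17 points. The ratio of observed to expected CpG in 100 bp was 0.655 at long and 0.610 at short footprints (means of 3 libraries).

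The sequences under the footprints differed more than their base composition. Consensus patterns were searched on both strands in equal windows of 60 bp at the footprint centre, since a longer interval holds any pattern more often. Windows at the centres of all peaks give the background share. Of 23 patterns fixed with the design and 2 added after the sequences were seen, those for CTCF, the GC box, CREB/ATF and the tRNA B box stood out at long footprints. Patterns of PU.1, AP-1, C/EBP, interferon regulatory factors and RUNX, factors that shape myeloid cells, were rarer there. This did not hold for all regulators of these cells. The GC box is also bound by KLF factors, and the EGR pattern was at 0.40% of long and 0.21% of short footprints. A match describes the letters and is not evidence that the factor was bound.

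With up to 1 mismatch allowed, CTCF patterns were at more than 1 in 2 distal long sites. Mismatches were allowed only after the values were seen, and the pattern fixed with the design is the exact match. The CTCF consensus, with up to 1 mismatch, was present at 57.6% of distal long sites (667 of 1158, 95% Wilson interval 54.7 to 60.4%), against 8.96% of distal short sites (285 of 3181, 8.02 to 10.002%). Distal peak centres held it in 20.4% of windows. An exact match occurred at 21.3% of distal long footprints in each library, and at 3.22%, 3.43% and 3.21% of distal short footprints in replicates 1, 2 and 4. With up to 2 mismatches the shares were 74.8% for long and 16.7% for short. At promoters, 8.28% of long sites (109 of 1317, 6.91 to 9.89%) and 1.39% of short sites (55 of 3944, 1.07 to 1.81%) held the pattern with up to 1 mismatch. Over all footprints, exact matches came to 11.1% for long and 1.59% ± 0.053 for short footprints, with more among long ones on 19 of 19 autosomes. Shared footprints of 25 bp or more held an exact match in 15.7% of cases and those of 40 bp or more in 9.74%. Those of 13 to 20 bp held it in 2.62%. The share thus did not rise with the length threshold, and it was not particular to 30 bp or more.

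**Figure D3:**
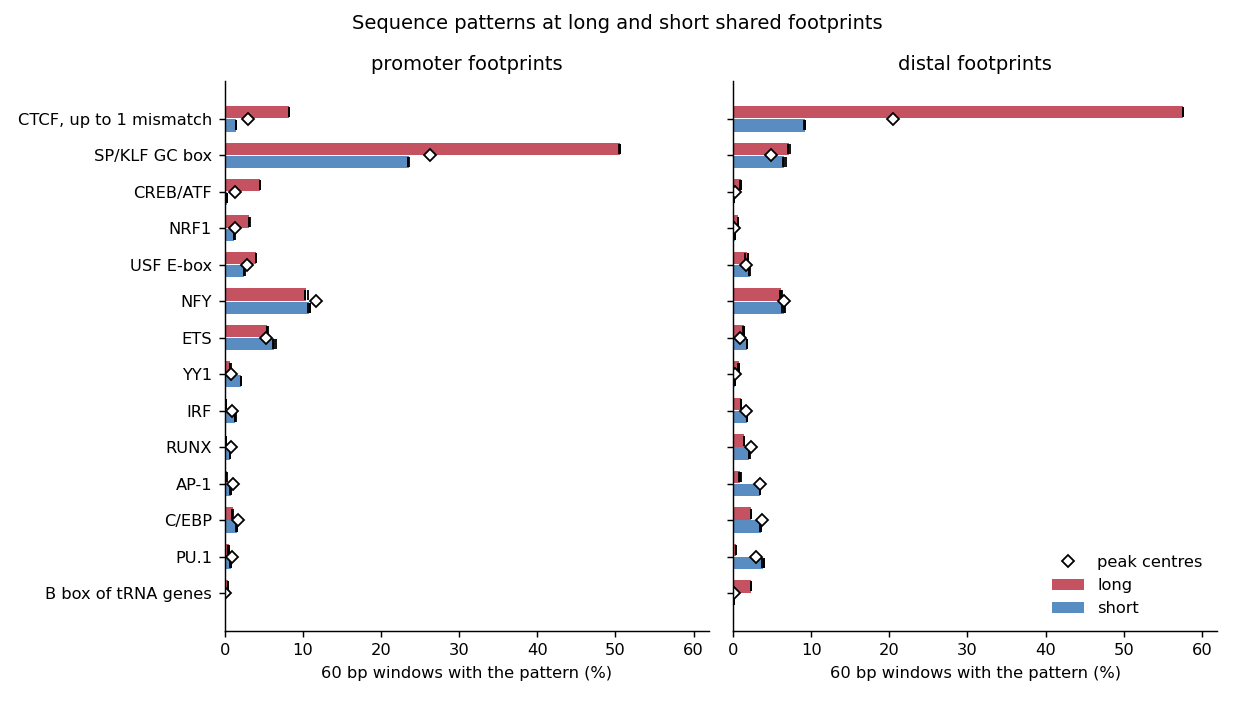
Share of 60 bp windows with each sequence pattern at promoter footprints (left) and distal footprints (right), for long footprints (red, upper bar) and short footprints (blue, lower bar). Bars are means over 3 libraries, ticks are the libraries, and diamonds give the share at the centres of all peaks of that kind. CTCF reaches 57.6% of distal long footprints against 9.16% of distal short ones, and the GC box 50.6% of promoter long footprints against 23.5% of promoter short ones.

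The footprints at CTCF patterns nearly always spanned the pattern. Of the 776 long sites with the pattern, the long footprint covered the whole match in 99.4%, 98.3% and 98.1% of cases in replicates 1, 2 and 4. In the orientation of the pattern, the footprint began a median of 19, 12 and 14 bp before the match and ended a median of 12 bp after it in each library. The flank before the match often held an element, GCANTNCC, that was picked after the sequences were seen. It occurred in the 30 bases before the match at 160 sites (20.6%) and in the 30 bases after it at 6 sites (0.77%). Additional zinc fingers of CTCF are known to contact a second module of sequence upstream of the main one.

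Where that element was present, the footprint reached further upstream. Its median length was 42, 39 and 41 bp in replicates 1, 2 and 4 with the element, and 37, 33 and 34 bp at the 616 sites without it. It began a median of 22, 21 and 21 bp before the match with the element, against 10, 8 and 8 bp without it. After the match the order was the other way, with 9, 8 and 9 bp against 13, 12 and 13 bp. At 20 bp before the centre of the match, the footprint covered 95.6%, 88.1% and 93.1% of sites with the element, and 48.1%, 37.5% and 39.4% of sites without it. Some sites without these letters thus had the longer form as well. The members were selected on length, and the element was chosen on these sites, so these values are a description.

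**Figure D4:**
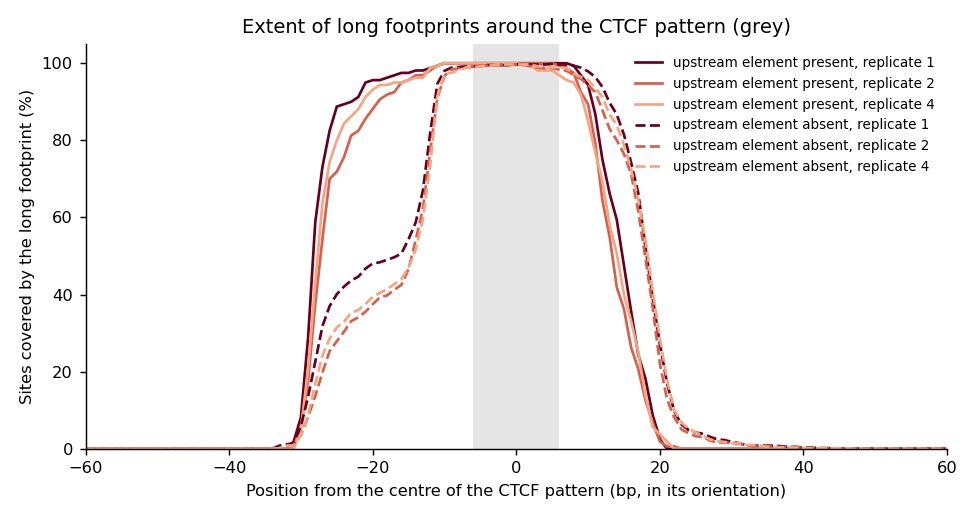
Share of the CTCF-pattern sites covered by the long footprint at each position from the centre of the pattern, in the pattern's orientation, for 160 sites with the upstream element (solid) and 616 sites without it (dashed), 1 line per library. The grey band is the pattern. Coverage with the element stays at 88.1 to 95.6% up to 20 bp before the centre, where it is 37.5 to 48.1% without the element.

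The mix of patterns changed with the length of the footprint. Among distal sites, the CTCF pattern with up to 1 mismatch was at 60.5%, 62.04% and 61.4% of footprints of 30 to 34 bp in replicates 1, 2 and 4. At 40 to 44 bp it was at 63.6%, 57.3% and 63.3%, and at 50 bp or more at 23.8%, 10% and 8%, from 42, 20 and 25 footprints. The upstream element was at 3.42%, 6.20% and 6.32% of CTCF-pattern footprints of 30 to 34 bp and at 32.2%, 34.4% and 32.4% of those of 40 to 44 bp. At promoters, the GC box was at 40.9%, 43.4% and 37.0% of footprints of 30 to 34 bp and at 58.4%, 58.3% and 57.2% of those of 40 to 44 bp. Distal footprints of 50 bp or more thus held the CTCF pattern less often than shorter long ones in each library, though they were few. In replicate 1 their share was still above the 20.4% at distal peak centres.

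**Figure D5:**
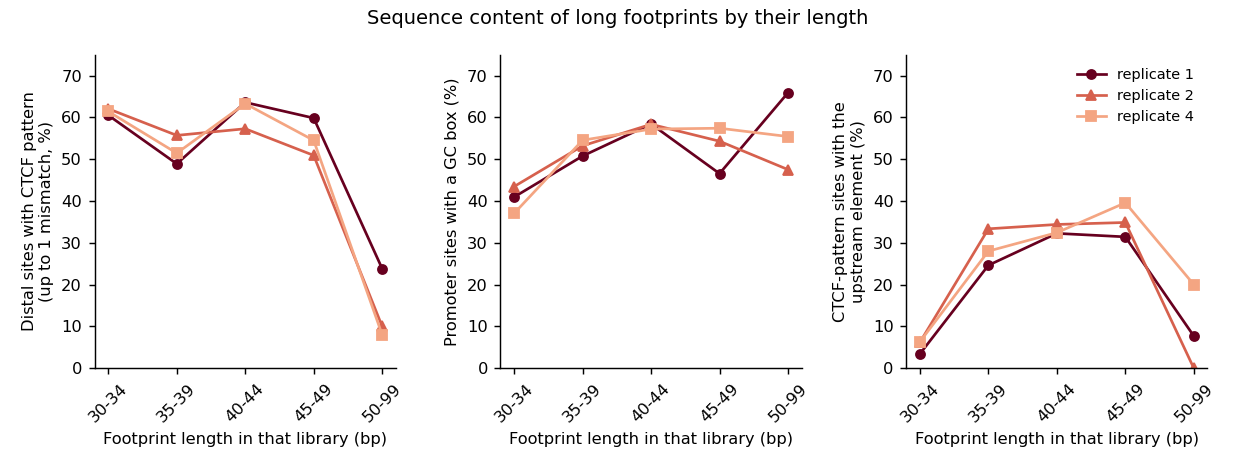
Share of distal long footprints with the CTCF pattern (left), of promoter long footprints with a GC box (middle) and of CTCF-pattern footprints with the upstream element (right), by footprint length in each library. The distal CTCF share is 48.9 to 63.6% in the bins up to 49 bp and 8 to 23.8% at 50 to 99 bp, and the last bin of the right panel holds only 13, 2 and 5 footprints.

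At promoters, the GC box GGGCGG, the binding pattern of SP and KLF zinc finger activators, was the leading pattern. It occurred at 50.6% of promoter long sites (666 of 1317, 95% Wilson interval 47.9 to 53.3%) and at 23.4% of promoter short sites (921 of 3944, 22.1 to 24.7%). At promoter peak centres its share was 26.3%. At least 2 GC boxes were in the window at 19.3% of promoter long sites and 4.67% of promoter short sites. The related box CACGCCC, added after the sequences were seen, was at 15.8% of promoter long footprints in each library, and at 3.51%, 3.32% and 3.50% of short ones in replicates 1, 2 and 4. Both boxes can be in the same window. Promoter long sites with a GC box lay in very tall peaks, with a median height percentile of 97.3, 96.6 and 97.2 in replicates 1, 2 and 4. All promoter long sites were at 96.8, 95.9 and 96.6, so this was not particular to the GC box. Distal long sites with a CTCF pattern were at 80.6, 74.1 and 77.2, and all distal long sites at 83.1, 77.6 and 80.9. At distal footprints the GC box was at 7.14% ± 0.18 of long and 6.58% ± 0.20 of short footprints.

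A further promoter pattern was TGACGTCA, the response element of CREB and ATF leucine zipper factors. It was at 60 promoter long sites (4.56%, 95% Wilson interval 3.56 to 5.82%) and 13 promoter short sites (0.33%, 0.19 to 0.56%). At promoter peak centres its share was 1.32%. The pattern of NRF1, an activator of genes for mitochondrial and other basic functions, was at 3.14% ± 0.044 of long and 1.25% ± 0.031 of short promoter footprints. The USF E-box CACGTG was at 3.97% ± 0.044 and 2.51% ± 0.073. CTCGCGAG, the pattern of Kaiso, was at 1.19% ± 0.044 of promoter long footprints and 0.36% ± 0.038 of short ones. CCAAT, the box bound by NFY, did not separate the classes: it was at 10.4% ± 0.20 of long and 10.8% ± 0.17 of short promoter footprints.

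At distal footprints, the patterns of PU.1, AP-1, C/EBP, interferon regulatory factors and RUNX went the other way. GAGGAAGT, a binding pattern of PU.1, the master regulator of myeloid cells, was at 0.35%, 0.35% and 0.43% of distal long footprints in replicates 1, 2 and 4, against 3.902%, 3.77% and 3.96% of distal short ones. Distal peak centres held it in 2.97% of windows. TGANTCA, the AP-1 pattern, was at 0.92% ± 0.13 of distal long and 3.42% ± 0.029 of distal short footprints. TTGCNNAA, the C/EBP pattern, was at 2.25% of distal long footprints in each library and at 3.56% ± 0.068 of distal short ones. GAAANNGAA, the pattern of interferon regulatory factors, was at 1.04% of distal long and 1.77% ± 0.043 of distal short footprints. TGTGGTT, the RUNX pattern, was at 1.41% ± 0.050 and 2.11% ± 0.055. Outside these factors, AANATGGCG, the pattern of YY1, was at 0.71% ± 0.044 of long and 2.09% ± 0.057 of short promoter footprints. At distal footprints its direction turned, with 0.75% ± 0.050 of long and 0.27% ± 0.0018 of short ones. CCGGAAG, the ETS pattern, was at 5.44% ± 0.088 of long and 6.35% ± 0.14 of short promoter footprints.

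Counted from the pattern, long sites held larger shares of all CTCF and CREB/ATF matches than of all PU.1 and AP-1 matches. Of 2707 exact CTCF matches inside peaks of all 3 libraries, 268 (9.90%, 95% Wilson interval 8.83 to 11.1%) had their centre in the core of a long site, 21 (0.78%) in a short site and 73.3% in a footprint of any length in every library. Of 588 CREB/ATF matches, 70 (11.9%, 9.53 to 14.8%) lay in a long site and 66.7% in any footprint. Of 18426 GC boxes, 845 (4.59%, 4.29 to 4.90%) lay in a long site. Of 731 NRF1 matches, 45 (6.16%) lay in a long site and 88.9% in any footprint. For PU.1 these shares were 7 of 2121 matches (0.33%, 0.16 to 0.68%) and 2.83%, and for AP-1 3 of 2590 (0.12%, 0.039 to 0.34%) and 1.70%. In a short site lay 1.51% of PU.1 and 0.93% of AP-1 matches. Matches of PU.1 and AP-1 patterns in open chromatin were thus seldom covered by a footprint of any length in all 3 libraries. Low shares in any footprint were not particular to them: RUNX had 4.45%, interferon regulatory factors 4.47% and CCAAT 5.77%, whereas ETS had 20.4%. Of the matches in a footprint of all 3 libraries, those in a long site were 268 of 1985 for CTCF and 45 of 650 for NRF1. They were 7 of 60 for PU.1 and 3 of 44 for AP-1.

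A small group of long sites marked tRNA genes, which RNA polymerase III transcribes from promoter boxes inside the gene. The union of the 3 footprints overlapped a tRNA gene of the RefSeq annotation at 66 long sites (2.67%, 95% Wilson interval 2.10 to 3.38%), against 9 short sites (0.13%, 0.066 to 0.24%), although a longer site overlaps a gene more readily. The core was centred inside the gene at 54 of them, in 54 genes. Of 161 autosomal tRNA genes whose centre lay in a peak of all 3 libraries, 57 (35.4%) were overlapped by a long site. Over all 66, the core was centred a median of 56 bp (quartiles 53 and 59) after the first base of the gene, where tRNA genes had a median length of 72 bp. GGTTCGANT, the B box pattern, added after the sequences were seen, was in the window at 30 of the 66. Of 124 B box matches inside peaks of all 3 libraries, 29 (23.4%, 16.8 to 31.6%) lay in a long site. In front of tRNA genes, 56 long sites and 14 short sites were centred 1 to 100 bp before the first base of a tRNA gene, and 21 genes had a long site in both places. The genes under the 66 sites carried 19 different amino acid letters in their names.

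Other genes of RNA polymerase III had long sites before their first base. Rpph1, the RNA of ribonuclease P, had a core of 53 bp at chr14:50807788-50807840, upstream of its start. Rn7s1 and Rn7s2, copies of the signal recognition particle RNA gene, had cores of 36 bp at chr12:69159246-69159281 and 41 bp at chr12:69361495-69361535. Rn7s1 and Rn7s2 are near copies of each other, so reads of 1 may be placed at the other. No long site lay in or within 100 bp before a small nuclear RNA gene of GENCODE M21 (0 of 2475, Wilson interval up to 0.15%), against 3 short sites.

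Some members held none of the features listed next. The CTCF pattern with up to 1 mismatch, the GC box, CREB/ATF, NRF1, CCAAT and tRNA genes were all absent from 435 promoter sites (17.6% of the members) and 346 distal sites (14.0%). Their median core was 33 bp in both cases. Only overlap with a tRNA gene itself was counted, so sites in front of tRNA genes, Rpph1, Rn7s1 and Rn7s2 can be among them. Repeat sequence, soft-masked in the reference over more than 50% of the core, made up 238 sites (9.62%, 95% Wilson interval 8.52 to 10.8%). Among short sites, taken whole, it was 549 (7.71%, 7.11 to 8.35%).

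The longest core, with 98 bp, lay 0.59 kb downstream of a TSS of Gm10718, a gene model in a block of repeats near the start of chromosome 9. Footprint lengths there were 99, 98 and 98 bp and the peak heights 27.3, 23.8 and 21.7. In all, 13 members lay on chromosome 9 below 3.1 Mb, including a core of 59 bp near Gm11168, whose letters all recur in 1 run inside the longest core. Their peaks were at a median height percentile of 99.98, 99.97 and 99.9. How reads that match several repeat copies were placed is not given in the sources used here, and the comparisons were therefore repeated without these sites: the differences were 10.2 points for the share in peaks, -2.52 for the share at promoters, 1.69 for GC content, 12.5 for the height percentile and 9.58 for exact CTCF matches. Outside this block, the longest core of 77 bp was 55.4 kb from the TSS of Pdia4, which encodes a protein disulfide isomerase of the endoplasmic reticulum, in peaks of height 8.57, 6.48 and 8.57.

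The other long cores were mostly promoters. Zmynd8, which encodes a chromatin reader, had a core of 61 bp centred 8 bp upstream of a TSS that lies inside the gene. Its footprints measured 68, 61 and 68 bp and held CCAAT boxes in both orientations. Cacybp, which encodes a calcyclin binding protein, had 58 bp at 7 bp upstream with GC boxes. Rbm27, which encodes an RNA binding protein, had 57 bp at 40 bp upstream with a CCAAT box and a GC box. Wdr18, Phldb3 and B9d2 each had cores of 55 bp at 90, 30 and 54 bp upstream of a TSS, which for Phldb3 and B9d2 lies inside the gene. The Phldb3 site held the CACGCCC box and the B9d2 site GC boxes. Ccdc93 had 54 bp centred 11 bp downstream, and Inpp5f, which encodes a phosphoinositide phosphatase, 54 bp at 167 bp upstream with a GC box. Besides the sites of Pdia4 and Gm11168, the 1 distal site among them was 193 kb from Rnf219, with footprints of 84, 82 and 54 bp. The CTCF pattern with up to 1 mismatch was in the 60 bp window of 0 of these 12 sites.

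The nearest genes were many, with few sites each. The 2475 sites had 2093 different nearest protein-coding genes, of which 1783 had 1 site, 255 had 2 and 55 had 3 or more. The nearest TSS was within 50 kb for 2330 sites (94.1%). The genes with most sites within 50 kb had 5 or 4. Hfe2, which encodes the iron regulator hemojuvelin, had 5 sites at 23.6 to 27.3 kb upstream, of which 4 overlapped the tRNA genes n-TNgtt12, n-THgtg8 and n-TEctc13. Gm10718 had 5 in its repeat block.

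The 7 genes with 4 sites were Abcb9, Abt1, Ano10, Aurkb, Hist1h4h, Klrb1c and Sgk1. Abcb9, a lysosomal peptide transporter gene, had 3 sites with GC boxes in a row at 38, 113 and 218 bp upstream of the TSS, with cores of 48, 41 and 40 bp. Ano10 had 3 upstream as well, at 50, 163 and 275 bp. Sgk1, a glucocorticoid-induced kinase gene, had 2 sites at a promoter inside the gene, 12 and 92 bp upstream of that TSS, both with GC boxes. It had 2 more with CTCF patterns at 1.46 and 15.7 kb from that TSS. Abt1, the mitotic kinase gene Aurkb and the histone gene Hist1h4h each had 2 of their sites at tRNA genes. Klrb1c, a natural killer cell receptor gene, had 4 distal sites, of which 2 held CREB/ATF patterns. The nearest gene is a position and not a target.

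A long site lay within 1 kb of a coding TSS in 1335 of 20696 autosomal protein-coding genes, or 6.45%, and in 12.5% of the 10713 genes that had a promoter peak in all 3 libraries. A short site lay there for 3503 genes. Both were present at 486 genes, which was 36.4% of those with a long and 13.9% of those with a short site. The gene lists are read against the 12.5%, and their counts are small. Of 43 myeloid regulator genes with a promoter peak, 8 (18.6%) had a long site: Klf2, Klf6, Ets1, Elf1, Jun, Stat3, Relb and Tfeb. Of 14 monocyte marker genes with a promoter peak, 0 had one. It was 4 of 11 genome architecture genes (Ctcf, Smc3, Stag1 and Mau2), 4 of 24 cytosolic ribosomal protein genes, 4 of 20 splicing genes, 4 of 17 lysosome genes (Ctsd, Npc1, Atp6v0d1 and Tfeb, which is on both lists), 2 of 23 respiratory chain genes and 1 of 13 interferon response genes (Bst2). B cell and T cell genes with a promoter peak numbered 1 each, erythroid genes 1, neutrophil granule genes 2 and hepatocyte genes 0, and none of them had a long site there.

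The labelled cell type was checked against open promoters. Of the 11 monocyte marker genes fixed for this check, 9 had a promoter peak in all 3 libraries, including Csf1r, Cx3cr1, Cd14 and Spi1. It was 2 of 7 neutrophil genes (S100a8 and Csf3r), 0 of 5 B cell, 0 of 5 T cell, 0 of 4 erythroid and 0 of 5 hepatocyte genes.

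The long sites of the myeloid genes were mixed in kind. Klf2, the gene of a quiescence factor of leukocytes, had a core of 47 bp centred 176 bp upstream of the TSS with GC boxes, in footprints of 54, 55 and 47 bp and peaks of height 11.9, 11.2 and 15.6. Klf6 had 38 bp at 44 bp upstream, with a GC box, a CCAAT box and an E-box, in peaks of height 12.5, 11.2 and 15.6. Jun, an AP-1 subunit gene, had 32 bp at 96 bp upstream with a GC box. Ets1 had 31 bp at 63 bp upstream of a TSS inside the gene, with a GC box and a CCAAT box. Stat3, which encodes a cytokine signal transducer, had 2 sites, of 45 and 42 bp at 156 and 227 bp upstream, with none of the searched patterns.

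At Cebpb, which encodes the monocyte regulator C/EBP beta, a core of 46 bp lay 3.59 kb upstream at chr2:167685302-167685347. Its footprint measured 46 bp in each library and its peaks were of height 7.31, 5.55 and 9.05. It held a CTCF pattern with 1 mismatch. CTCF patterns, exact or with 1 mismatch, were also at the sites nearest to Irf8 (57.8 kb downstream of a TSS), Ly86 (32.5 kb upstream) and Batf3 (13.2 kb upstream). Irf8 and Batf3 encode regulators of monocytes and dendritic cells, and Ly86 encodes a partner of a Toll-like receptor relative. The site of Fos, 12.3 kb downstream of the TSS, held a GC box, and that of Maf, 1.81 kb upstream, a C/EBP pattern. Fcgr4, an Fc receptor gene of monocytes, had 3 sites at 15.04 to 19.2 kb, all of which overlapped the tRNA genes n-TNgtt6 and n-TGtcc2. Relb, Rxra and Tfeb were the nearest gene of 1 site each, and Elf1 had a site at its promoter that was nearer to another gene.

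Most long sites had no other shared long site and no shared short site close by. Footprints of other lengths and unshared ones were not counted as neighbours here. Counting footprints of any length, the peaks that held a long footprint had a median of 4, 3 and 3 in replicates 1, 2 and 4. Another long site was within 200 bp of 362 members (14.6%), as at Abcb9 and Ano10, and a short site within 100 bp of 438 (17.7%).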

How the data were processed

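DNase-seq of 3 monocyte libraries was used, and each library had its own files. Per the labels, positions are on mm10. The authors deposited footprints with a constant p-value of 0.01, a track of cleavage false discovery rates (q-values, listed below 0.05), and a longer and a shorter peak list with a height per peak, treated here as signal. The sources used here name no aligner, peak caller, footprint method or scaling, and no counts are in the files, so depth and its effect on footprint length are unknown. Footprints enter by position only.

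Shared footprints, distances to GENCODE M21 start sites, GC content and pattern matches on GRCm38.p6 were computed with Python 3.11.15, numpy 2.4.6 and pandas 2.3.3, intervals with scipy 1.17.1 and plots with matplotlib 3.10.9. The counting steps were tested on simulated data. Libraries were compared by exact sign-flip permutation. Named genes are the nearest genes of the 12 longest cores, the 10 genes with most sites within 50 kb and up to 12 genes of the myeloid lists. Some genes that this rule names are not reported here. The members and lists were chosen with earlier results of these data known. The CTCF mismatches, runs of GC boxes, CACGCCC, the B box, the upstream element and the exclusion of chromosome 9 below 3.1 Mb were added after the values were seen. Sex chromosomes were left out of the comparisons.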

Additional observations from a re-analysis of the deposited data

Results flagged for a closer look

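Chromosome X lies outside the autosomal rule and was left out of all comparisons. It held 307 footprints of 30 bp or more over the 3 libraries, and 39 sites were shared by all 3 libraries under the same rule. Chromosome Y held 3 such footprints and 1 shared site, although the labels give female mice, and how reads with several matches were placed is not given in the sources used here. With 3 libraries in the group, outlying libraries were not looked for.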

How the results depend on the processing

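The number of shared long sites was 5419 from 25 bp on, 544 from 40 bp on and 3782 without replicate 2, against 2475 as reported, and it ranged from 2821 to 3782 with any 1 library left out. The share in peaks kept its direction in 10 of 10 alternatives, as did the peak height percentile in 10 of 10 and the exact CTCF share in 14 of 14. With 1 library left out, the difference was 8.76 to 9.94 points for the share in peaks, 14.98 to 16.4 for the height percentile, 9.39 to 10.2 points for CTCF, -1.41 to 3.53 points for the share at promoters and 1.92 to 2.79 points for GC content. The promoter difference reversed in 3 of 12 alternatives, to 1.52 without replicate 1, 3.53 without replicate 2 and 7.22 over all footprints of each class, shared or not. The GC difference reversed in 1 of 12, to -5.17 against footprints of 13 to 20 bp. The cause was not tested. The exact sign-flip permutation test, which pairs long and short footprints within each library, cannot pass a threshold of 0.05 with 3 libraries, so directions and sizes are compared here. Over all footprints of each class, the GC difference was 4.48 points and the height difference 22.9. Unknown depth limits every count of footprints and every length.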

Other observations

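Patterns outside the groups described above were rare at long footprints. The TATA box TATAAA was at 0.53% of promoter long footprints in each library and at 0.84% ± 0.047 of promoter short footprints (SD, n = 3). The pattern of ZNF143, a promoter factor, was at 0.38% of long and 0.65% ± 0.066 of short promoter footprints. GGGANNTCC, a pattern of NF-kappaB, a mediator of inflammatory signalling, was at 0.52% of distal long and 1.21% ± 0.044 of distal short footprints. GCGTGGGCG, the pattern of the EGR factors, was at 0.53% of long and 0.37% ± 0.014 of short promoter footprints. At distal footprints it was at 0.26% of long and 0% of short ones. GAANNTTC, part of the heat shock element, was at 0.84% of long and 0.78% ± 0.054 of short promoter footprints.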
